A study of Mus musculus with 30 samples.

Results

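The effect of a high-fat diet on adipose-derived stem cells of 52-week-old mice was examined in 14 RNA-seq libraries out of 30 in the series. The 6 libraries of aged obese mice (numbers 10, 12, 14, 15, 16 and 17) were compared with the 8 libraries of aged lean mice (numbers 11, 12, 13, 15, 16, 17, 19 and 20), and every change below is obese minus lean. All mice were C57BL6/J males. The lean group was fed control chow. The obese group was fed a lard-based diet with 60% of its energy from fat, from weaning until death. Cells of the inguinal fat pad had been sorted as Sca-1+, CD34+, CD31-, CD45- and Ter119-, grown to passage 2 and frozen mouse by mouse, so the libraries describe cultured progeny of the sorted cells and not cells taken directly from the fat. Of 12 mice bought for each group, 8 aged obese mice were alive at 360 days, and the obese libraries therefore come from mice that survived to that age. The cause of the losses was not tested. Mice were housed 4 to 5 to a cage, and the labels do not say which mice shared one. The 8 young lean and 8 young obese libraries, of 20-week-old mice, served for the spread of the data and for a comparison of ages.

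Adipose-derived stem cells, also called adipose stromal or progenitor cells, are fibroblast-like cells that lie around vessels and in the septa of fat. They give rise to new adipocytes, secrete and remodel the extracellular matrix, and send out chemokines that draw immune cells into the tissue. Wnt and TGF-beta signals hold these cells back from adipocyte fate and drive matrix production. The integrated stress response is a separate programme in which amino acid shortage, unfolded proteins or other stresses lead to translation of the transcription factor ATF4, which then turns on genes of amino acid synthesis, amino acid transport and tRNA charging.

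Reads in genes ranged from 32053761 to 47970233 in the 14 aged libraries, and no pair within a group agreed within sampling noise. Levels are given as CPM, read counts relative to the scaled total of each library. Of the genes for the proteins used to exclude cells, Ptprc, which encodes CD45, had no read in any of the 14 libraries, and Pecam1, which encodes CD31, did not exceed 0.278 CPM. The lymphocyte gene Cd3e and the haemoglobin genes Hbb-bt and Hba-a1 were also at 0. Other markers of these cells were present: Csf1r lay at 8.22 to 30.5 CPM, and Tek reached 16.2, Lyz2 6.1, Cd68 5.49 and Egfl7 4.01 CPM. The 15 haematopoietic markers in the table summed to 12.5 to 37 CPM in lean and 16.2 to 30.5 CPM in obese libraries. Some libraries stood apart. Aged obese 10 and 12 had little Ly6a, which encodes Sca-1 (176 and 362 CPM, against 754 to 1210 CPM in lean libraries and 917 to 1020 CPM in the other 4 obese libraries). They were also at 0.193 and 0.732 CPM of Cd34, against 1.07 to 28.7 CPM in lean libraries. The proliferation marker Mki67 was at 234 and 173 CPM there, against 19.8 to 172 CPM in lean libraries, so it set only aged obese 10 clearly apart. Aged lean 16 and aged obese 15 and 17 formed another set, with Heyl, a Notch target, at 47.1, 135 and 50 CPM, against at most 13.9 CPM in the other aged libraries. Their Mki67, at 21, 20.1 and 15 CPM, was low, as it was in aged lean 15 (19.8 CPM). The median SD of log2 CPM was 0.383 among aged obese and 0.298 among aged lean libraries. How far such differences between cultures contribute to the changes below was not tested, and p-values treat the libraries as independent.

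With obesity at 52 weeks, 32 of 14438 genes passed the threshold of a Benjamini-Hochberg adjusted p below 0.05 in edgeR's quasi-likelihood test. These genes, 0.222% of those tested, are said below to be called. Of them 24 rose (0.166%) and 8 fell (0.0554%). The genes that rose encode secreted Wnt and TGF-beta modulators (Sfrp2, Ltbp4), matrix and adhesion proteins (Tnn, Itga5, Icam1), a chemokine (Ccl9), 3 granzymes and several transcription factors. Those that fell include the stress response gene Trib3, the retinol dehydrogenase gene Dhrs9 and the calcium channel gene Itpr3. The median absolute log2 change of the called genes was 1.48. The cells were measured in bulk, so a lower level can reflect fewer cells of a type or less RNA per cell, which cannot be told apart.

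**Figure D1:**
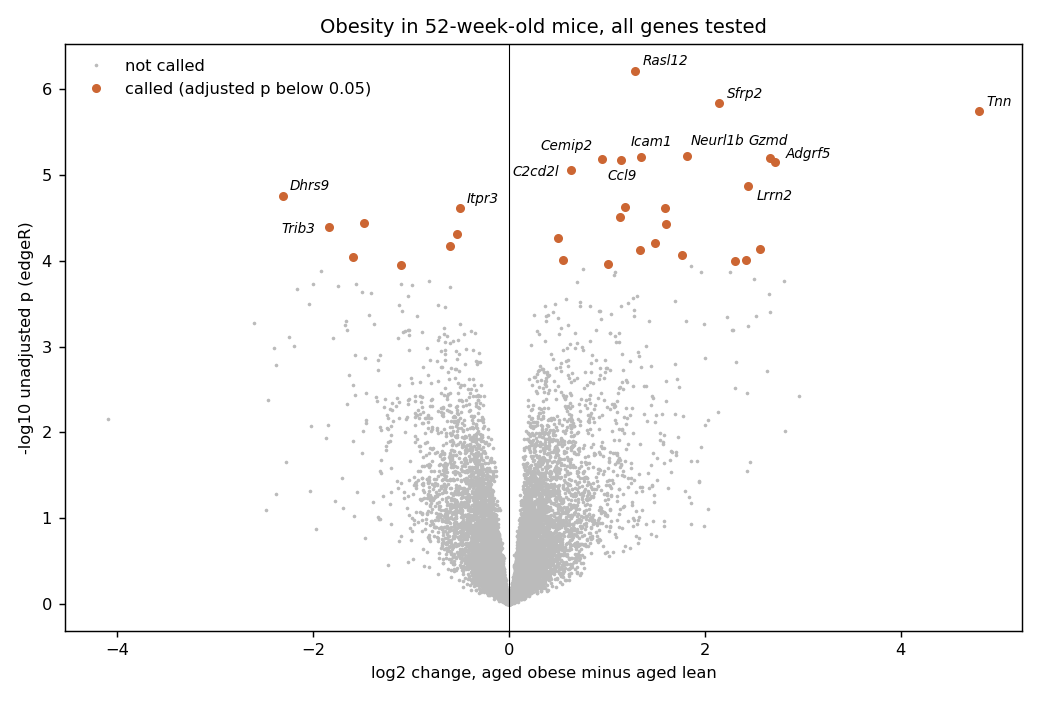
Each point is 1 of the 14438 genes tested, with its log2 change on the x axis and -log10 of the unadjusted edgeR p on the y axis; called genes are coloured. The 24 called genes with positive changes include Tnn at 4.80, and the 8 with negative changes reach -2.31 at Dhrs9.

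The number of called genes changed with the libraries and the model. Leaving out aged obese 10 gave 9 calls, leaving out aged lean 16 gave 435 and leaving out aged obese 16 gave 318. Dropping aged obese 10 and 12 together left 9, and dropping aged lean 16 as well gave 930. Aged lean 16 was the only lean library in the set with the highest Heyl. Aged obese 15 and 17 of that set stayed in both fits without aged lean 16. There the set occurs only in obese libraries, so its part in the calls cannot be told apart from that of obesity. With only the 14 aged libraries in the edgeR fit no gene was called, while 1332 had an unadjusted p below 0.05 and the smallest adjusted p was 0.0779. Limma-voom with a variance for each group also called none (1155 at an unadjusted p below 0.05), voom with quality weights called 114 and DESeq2 187. Of the 32 genes 5 were called whichever single aged library was left out, namely Rasl12, Sfrp2, Tnn, Ccl9 and Neurl1b. When aged obese 10 and 12 were both dropped, all 32 kept the sign of their change and 6 were still called, namely Nefm, Gzme, Neurl1b, Gbx2, Itpr3 and Msx1.

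**Figure D2:**
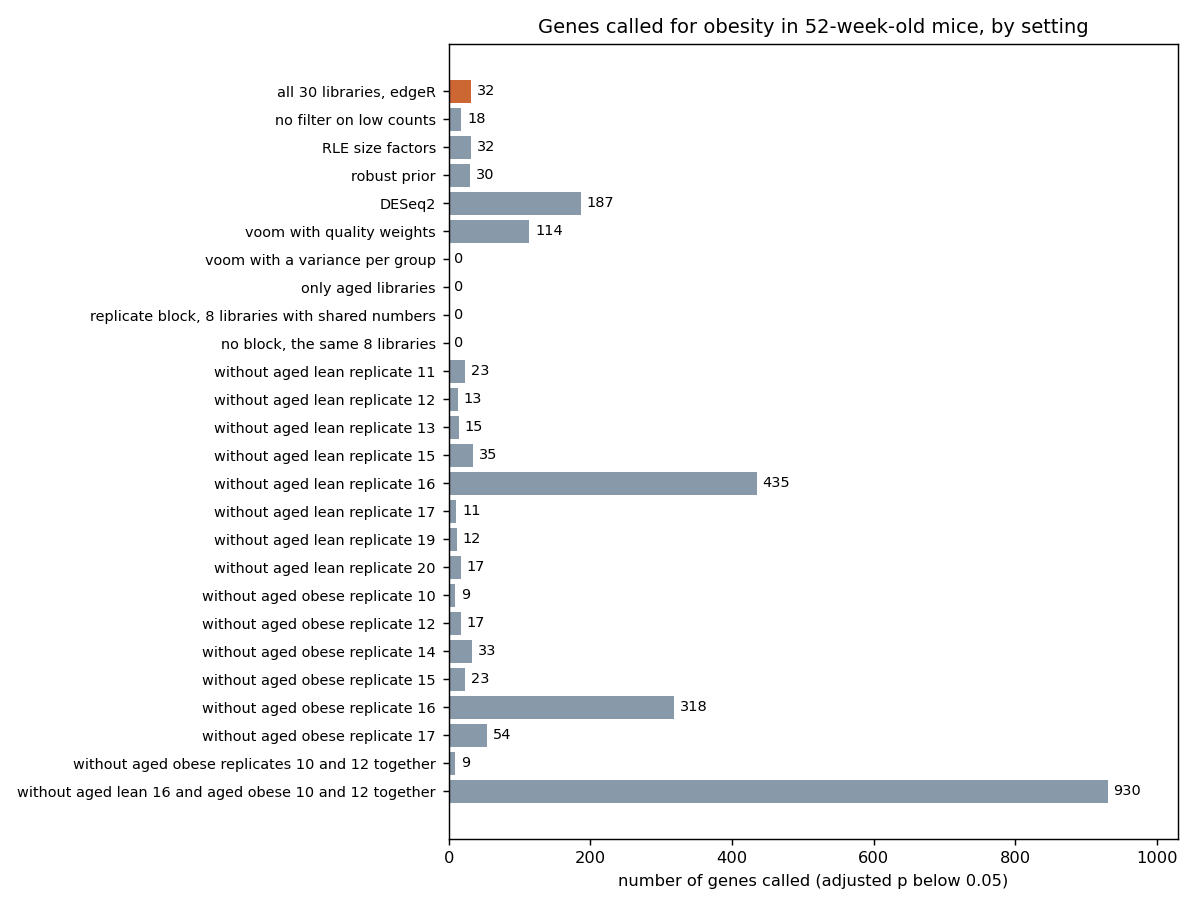
Bars give the number of genes called with obesity in 52-week-old mice under each setting, from 0 on a linear axis. The model with all 30 libraries gave 32 calls. Settings ranged from 0 (only aged libraries, voom with a variance per group) to 930 (without aged lean 16 and aged obese 10 and 12).

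Sfrp2 and Rasl12, with Tnn, had the smallest adjusted p among the genes that rose. Sfrp2 (ENSMUSG00000027996), a secreted protein that binds Wnt ligands and modulates their signalling, lay at 1.88, 6.62 and 8.15 CPM (lowest, median and highest) in lean libraries and at 9.72, 25.4 and 51.5 CPM in obese libraries. The groups did not overlap. Rasl12 (ENSMUSG00000041696), a small GTPase of the Ras superfamily, lay at 4.39, 6.78 and 7.49 CPM in lean and at 7.98, 17.1 and 20.9 CPM in obese libraries, again without overlap. The log2 change was 2.15 ± 0.36 (SE) for Sfrp2 and 1.29 ± 0.20 for Rasl12, each with an adjusted p of 0.00871 and an exact two-sided permutation p of 0.000333, the smallest that groups of 8 and 6 allow. Without overlap a permutation p is bound to lie near that minimum. It was also not adjusted for the number of genes tested. In each gene the low end of the obese range came from 1 library. This was aged obese 17 for Sfrp2 (9.72 CPM) and aged obese 16 for Rasl12 (7.98 CPM). The changes were 1.76 and 1.08 without aged obese 10 and 12, and the adjusted p of each was 0.05037.

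Matrix and surface genes rose with unequal contributions of the libraries. Tnn, which encodes tenascin-N, a matrix glycoprotein of tendon, bone and other dense connective tissue, lay at 0.809, 1.56 and 3.61 CPM in lean libraries. In obese libraries it was at 115 and 155 CPM in numbers 10 and 12 and between 1.7 and 5.21 CPM in the other 4. Its log2 change was 4.80 ± 0.81 (adjusted p = 0.00871), and 1.03 ± 0.50 (adjusted p = 0.27) without those libraries. Adgrf5, an adhesion G protein-coupled receptor, behaved alike, at 35.7 and 26.9 CPM in obese 10 and 12 and 1.56 to 3.82 CPM in the other obese libraries, against 0.938 to 2.55 CPM in lean ones. Its change was 2.72 ± 0.50 (adjusted p = 0.0113), and 0.45 ± 0.27 (0.362) without them. Bcl6b, a transcriptional repressor, was at 21.3 and 20.7 CPM there and at 1.82 to 5.39 CPM in the other obese libraries. Its change of 1.77 ± 0.39 (adjusted p = 0.0472) was 0.28 (0.559) without them. All 3 changes thus rest on 2 libraries, those with little Ly6a and Cd34.

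Other matrix genes rested less on aged obese 10 and 12. Ltbp4, which encodes a protein that binds latent TGF-beta and takes part in elastic fibre assembly, lay at 11.7, 26.4 and 33.5 CPM in lean and at 25.7, 58.5 and 75 CPM in obese libraries. Of the 6 obese libraries 5 exceeded every lean one, and the change was 1.14 ± 0.23 (adjusted p = 0.0278). Cemip2, a cell surface hyaluronidase, lay at 31.6, 39.4 and 63.4 CPM in lean and at 39.9, 77.4 and 115 CPM in obese libraries, a change of 0.95 ± 0.17 (adjusted p = 0.0113). Its highest lean value came from aged lean 16, which also had the highest lean Itga5. Itga5, the alpha subunit of the fibronectin receptor, lay at 574, 796 and 1680 CPM in lean and at 712, 2020 and 2570 CPM in obese libraries. It rose by 1.01 ± 0.23 (adjusted p = 0.04997). Its high obese values were in numbers 10, 12, 15 and 17 (2570, 2550, 2090 and 1960 CPM). Numbers 14 and 16 were at 872 and 712 CPM. Mmp25, a membrane-anchored matrix metalloproteinase, rose by 1.61 ± 0.33 (adjusted p = 0.0303) from a low level, with a median of 0.261 CPM in lean and 0.929 CPM in obese libraries. Chsy1, an enzyme that builds chondroitin sulfate chains, rose by 0.50 ± 0.11 (0.0376), and Furin, a protease that cleaves precursors of growth factors and metalloproteinases, by 0.55 ± 0.12 (0.0486). With each of the 14 aged libraries left out in turn, Cemip2 was called in 13, Ltbp4 in 7, Mmp25 in 6, Furin in 4 and Chsy1 and Itga5 in 3 of the fits. Without aged obese 10 and 12 the changes were 0.90 (Ltbp4), 0.61 (Cemip2), 0.66 (Itga5), 1.43 (Mmp25), 0.50 (Chsy1) and 0.47 (Furin). None of these passed in that fit, with adjusted p from 0.0869 (Chsy1) to 0.176 (Itga5).

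**Figure D3:**
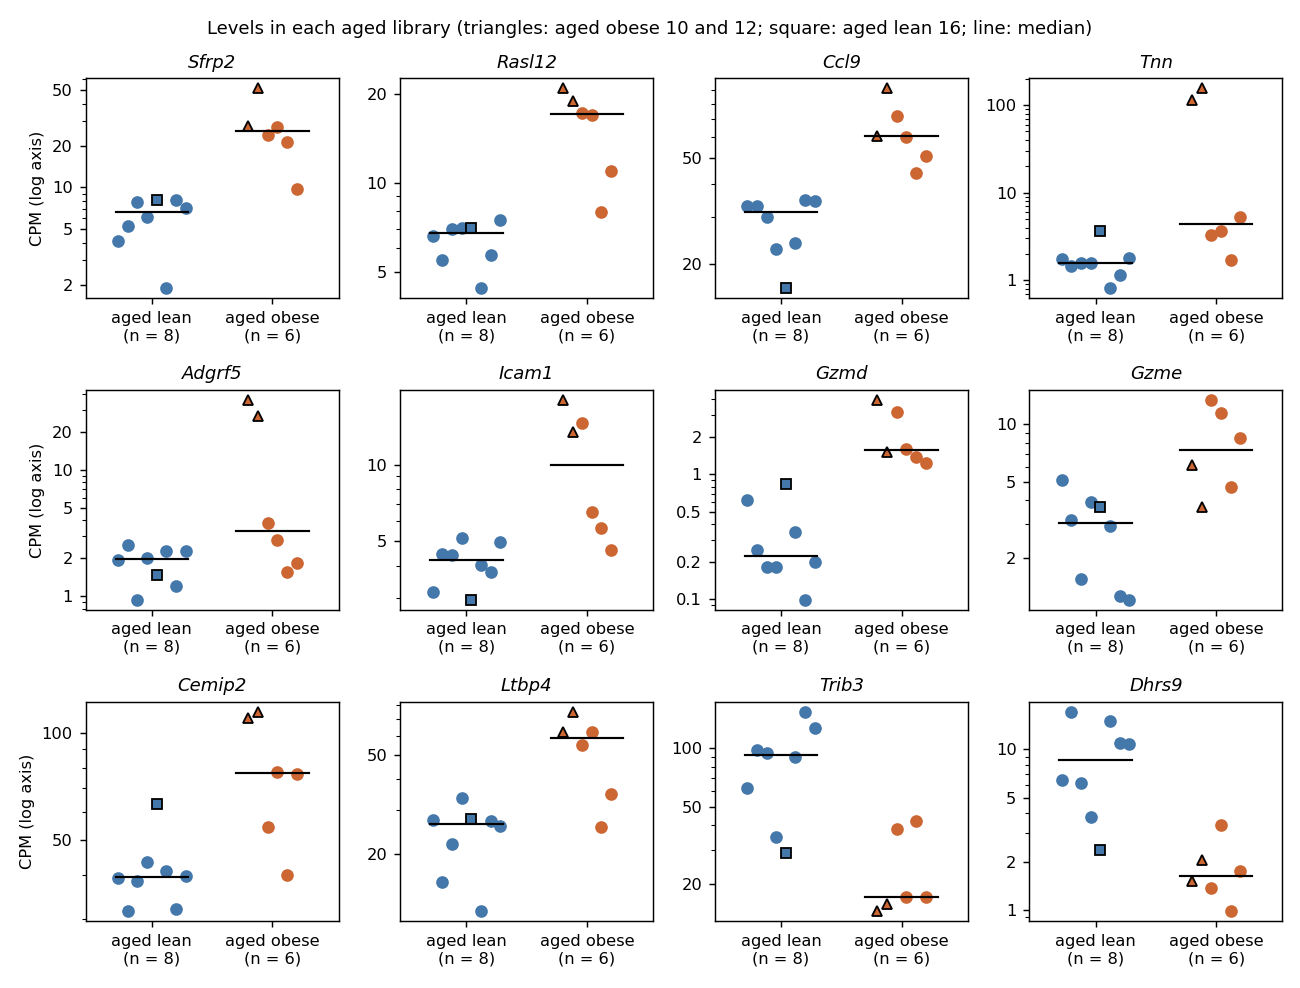
Each point is 1 aged library, with its level in CPM on a log axis, for 12 of the 32 called genes, chosen after their values were seen; lines are medians, triangles are aged obese 10 and 12, and squares are aged lean 16. The obese points lie above all lean points for Sfrp2, Rasl12, Ccl9 and Gzmd, and triangles alone make up the high values of Tnn and Adgrf5.

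The chemokine Ccl9 and the adhesion molecule Icam1 represented inflammatory mediators among the called genes. Ccl9 (ENSMUSG00000019122), a CC chemokine of mice that attracts cells bearing the receptor CCR1, lay at 16.2, 31.4 and 34.8 CPM in lean and at 43.9, 60.3 and 91.2 CPM in obese libraries. No obese library fell into the lean range, and the change was 1.15 ± 0.21 (adjusted p = 0.0113, exact two-sided permutation p = 0.000333). Icam1, the ligand of leukocyte beta2 integrins, lay at 2.94, 4.24 and 5.13 CPM in lean and at 4.61, 10 and 18 CPM in obese libraries. Here 5 of 6 obese libraries exceeded every lean one, and the change was 1.35 ± 0.25 (adjusted p = 0.0113). These adjusted p were 0.076 for Ccl9 and 0.105 for Icam1 without aged obese 10 and 12. In the list of chemokines and cytokines 14 of 18 members tested had a positive change and the median was 0.49, against 51.2% of all genes tested and a median of 0.01. Ccl9 was its only called member. Cxcl14 lay at 61.3, 173 and 323 CPM in lean and at 298, 670 and 3090 CPM in obese libraries (change 2.66 ± 0.64, adjusted p = 0.0665).

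Granzymes C, D and E, serine proteases best known from the granules of cytotoxic lymphocytes, were called together. Gzmd lay at 0.0991, 0.224 and 0.835 CPM in lean and at 1.24, 1.56 and 3.94 CPM in obese libraries, so the groups did not overlap, and it rose by 2.67 ± 0.49 (adjusted p = 0.0113). Gzme rose by 1.49 ± 0.32 (adjusted p = 0.0406) from a median of 3.03 to one of 7.3 CPM, and Gzmc by 2.31 ± 0.51 (adjusted p = 0.0486) from 0.254 to 1.23 CPM. Without aged obese 10 and 12 the change of Gzmc was 1.64 (adjusted p = 0.161). These levels rest on 97 reads of Gzmd in all 8 lean and 516 in all 6 obese libraries, on 841 and 1780 of Gzme, and on 75 and 304 of Gzmc. The 3 genes lie in 1 cluster on chromosome 14 and are closely similar copies, so reads may have been assigned to the wrong member or dropped, and single values are uncertain. Gzma had no read in any aged library and Gzmb had 8 reads in lean and 37 in obese libraries. The lymphocyte genes Ptprc and Cd3e were at 0 in all 14.

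Developmental transcription factors and genes named for neurons formed another group. Gbx2, a homeobox factor of the embryonic midbrain and hindbrain boundary, lay at 0.668, 1.35 and 1.81 CPM in lean and at 2.72, 3.21 and 7.79 CPM in obese libraries. Nefm, which encodes the medium neurofilament chain, lay at 1.24, 1.73 and 2.16 CPM in lean and at 2.55, 3.78 and 6.05 CPM in obese libraries. Neither gene's groups overlapped, and the changes were 1.59 ± 0.32 and 1.19 ± 0.24, each with an adjusted p of 0.0236. Msx1, a homeobox factor of limb and craniofacial mesenchyme, rose by 1.34 ± 0.29 (adjusted p = 0.044), and aged obese 15 reached 22.4 CPM against 3.74 to 9.34 CPM in the other 5 obese libraries. Without that library the change was 0.75 (adjusted p = 0.158). Sox18, a factor of vessel development, rose by 2.42 ± 0.54 (adjusted p = 0.0486), also with its highest value, 2.68 CPM, in aged obese 15, and by 1.63 (0.189) without it. Endothelial markers did not all behave alike beside it. Cdh5, which encodes VE-cadherin, was also highest in aged obese 15, at 1.51 CPM against at most 0.261 CPM in the other 13 libraries. So was Tek (16.2 CPM, against up to 15.8 CPM in lean libraries). Vwf, Pecam1, Emcn and Tie1 were highest there too, at 0.802, 0.278, 0.154 and 0.0309 CPM. Their highest lean values were 0.544, 0.209, 0.0784 and 0.0261 CPM. Kdr and Plvap were highest in aged lean 16 (2 and 1.5 CPM) and Egfl7 in aged lean 12 (4.01 CPM). Esam was highest in aged obese 10 and 12 (3.02 and 2.78 CPM, against 0.495 to 1.17 CPM in lean; change 0.84, unadjusted p = 0.0148), and Erg in aged obese 14 (0.237 CPM, against at most 0.0259 CPM in lean). Cldn5 was at 0 in 13 of 14 libraries. All 12 endothelial markers summed to 8.61 to 20.9 CPM in lean and 7.66 to 25.3 CPM in obese libraries, Tek being the most abundant in most, and their part in the rise of Sox18 was not tested.

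The remaining genes that rose have roles in signalling and at the membrane. Neurl1b, a ubiquitin ligase that promotes uptake of Notch ligands, lay at 0.0778, 0.17 and 0.322 CPM in lean and at 0.217, 0.647 and 1.05 CPM in obese libraries (change 1.82 ± 0.33, adjusted p = 0.0113). C2cd2l, a lipid transfer protein at contacts between endoplasmic reticulum and plasma membrane, rose by 0.63 ± 0.12 (0.0128) from a median of 17.3 to one of 29.7 CPM. Lrrn2, a leucine-rich repeat membrane protein, rose by 2.44 ± 0.47 (0.0177), with a lean median of 0.187 and an obese median of 0.745 CPM. Without aged obese 15, its highest library at 2.78 CPM, the change was 1.85 (0.0709). Tmem132e rose by 2.56 ± 0.55 (0.0437) and is a low-level gene, at 0 to 0.275 CPM in lean and 0.0869 to 1.64 CPM in obese libraries. Its high values were 1.16 and 1.64 CPM in aged obese 10 and 12, and the change was 1.29 (adjusted p = 0.232) without them. Of the 32 called genes 6 had a mean below 1 CPM in each group.

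Among the genes that fell, Dhrs9 changed the most. Dhrs9 (ENSMUSG00000027068), a short-chain dehydrogenase that oxidizes retinol and steroids, lay at 2.37, 8.62 and 17.2 CPM in lean and at 0.978, 1.63 and 3.36 CPM in obese libraries. Of the 6 obese libraries 5 lay below every lean one, and the change was -2.31 ± 0.45 (adjusted p = 0.0211). Itpr3, the type 3 inositol trisphosphate receptor that releases calcium from the endoplasmic reticulum, lay at 63.7, 85.2 and 96.3 CPM in lean and at 45.4, 58.3 and 73.3 CPM in obese libraries. It fell by 0.50 on the log2 scale (SE 0.10, adjusted p = 0.0236). Trank1 fell by 1.48 (adjusted p = 0.0303), Sybu, a kinesin adaptor also called syntabulin, by 1.59 (0.0482), and Prss16, a serine protease, by 1.10 (0.04997), all from lean medians under 2 CPM. Dzip1, a protein of the ciliary base, fell by 0.53 (0.0355) and Gnpda1, an enzyme that turns glucosamine 6-phosphate into fructose 6-phosphate, by 0.60 (0.0421). With single aged libraries left out, Dhrs9 was called in 11 of 14 fits, Itpr3 in 9, Trank1 and Dzip1 in 7, Gnpda1 in 5 and Sybu and Prss16 in 3.

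Trib3 was the called member of the integrated stress response list. Trib3 (ENSMUSG00000032715), a pseudokinase that ATF4 and CHOP induce and that restrains them in turn, lay at 29, 92.3 and 155 CPM in lean and at 14.4, 17.1 and 42 CPM in obese libraries. Of the 6 obese libraries 4 lay below every lean one, and aged lean 15 and 16, at 34.7 and 29 CPM, lay within the obese range. The change was -1.84 ± 0.38 (adjusted p = 0.0312), and the gene was called in 5 of the 14 fits with 1 aged library left out. It was -1.59 (adjusted p = 0.13) without aged obese 10 and 12. Of 34 list members tested 3 had a positive change, namely Atf3, Ddit4 and Cebpb, and the median was -0.37, against 0.01 for all genes tested. At an unadjusted p below 0.05, 15 members were lower and none was higher, where 5.78% of all genes were lower. The list's median was -0.32 without aged obese 10 and 12 and -0.36 with only the aged libraries. Without aged obese 10 and 12, 10 members were lower and 2 higher at an unadjusted p below 0.05. Over all genes, 2705 of 14648 had such a p in that fit, in either direction.

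The lower members of that list span its branches. Among amino acid synthesis genes, Psat1 and Phgdh of the serine pathway had changes of -0.68 ± 0.23 and -0.67 ± 0.28 and asparagine synthetase Asns of -0.51 ± 0.21. Psat1 had a median of 262 CPM in lean and 140 CPM in obese libraries. The tRNA synthetase genes Sars and Aars had changes of -0.33 ± 0.11 and -0.36 ± 0.14, and the transporter gene Slc7a3 of -0.81 ± 0.37. Sesn2, an inhibitor of mTORC1 under amino acid shortage, lay at 39.1, 69.9 and 93.5 CPM in lean and at 31.6, 35.5 and 70.4 CPM in obese libraries (change -0.66 ± 0.17). Its adjusted p was 0.0875, and that of each other member named in this paragraph was larger, so none of these passed. Ddit3, which encodes CHOP, had a change of -0.75 ± 0.30, while Atf4 itself had one of -0.10 ± 0.11 with medians of 352 and 325 CPM. Lean libraries varied widely in some of these genes, for example in Asns from 70.4 to 201 CPM, and obese libraries lay at 83.6 to 140 CPM within that range.

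Promoters of these genes were searched for the C/EBP-ATF element, the composite site through which ATF4 and its partners act, to show where the list carries it. The element was searched as TGATGNAA on both strands from 250 bases before to 50 bases after the start site of the RefSeq gene (GRCm38.p6), and 10 of 31 list promoters held it (32.3%), against 4.06% of 27025 promoters of all genes in the table. Of these windows 7 are shown. They run 5′ to 3′ along the gene's own strand, with the element in capitals. On the reverse strand it reads TTNCATCA.
Trib3, chr2:152344028-152344057, minus strand: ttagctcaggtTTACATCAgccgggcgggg
Pck2, chr14:55540152-55540181, plus strand: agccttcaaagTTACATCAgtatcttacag
Asns, chr6:7693214-7693243, minus strand: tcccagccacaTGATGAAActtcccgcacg
Chac1, chr2:119351038-119351067, plus strand: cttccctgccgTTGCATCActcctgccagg
Slc7a11, chr3:50443661-50443690, minus strand: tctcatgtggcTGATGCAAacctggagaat
Nupr1, chr7:126625562-126625591, minus strand: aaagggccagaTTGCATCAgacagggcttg
Atf3, chr1:191183425-191183454, minus strand: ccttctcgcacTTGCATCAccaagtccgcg
The capitals of Trib3 begin 15 bases into the transcript and those of Asns end 16 bases before it. The log2 change was -1.84 for Trib3, -0.68 for Pck2, -0.51 for Asns, -0.82 for Chac1, -0.51 for Slc7a11, -0.25 for Nupr1 and 0.53 for Atf3. The median change was -0.43 over the 10 genes with the element and -0.35 over the 20 tested list genes without it. The remaining promoter, also without a match, belongs to 1 gene that was below the filter on low counts. A match describes the letters of the window and not binding of a factor.

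The C/EBP-ATF element was less frequent in the called genes than in that list, and other motifs were searched there too. Of 24 called genes with a promoter in the table, 1 held the C/EBP-ATF element (4.17%), 2 an AP-1 site TGANTCA (8.33%, against 7.93% of all), 6 the CRE core TGACG (25%, against 21%) and 6 an NF-kappaB site (25%, against 8.18%). The promoter of Sfrp2 held an NF-kappaB match, that of Dhrs9 the AP-1 match TGACTCA and a CRE core, that of Itpr3 an NF-kappaB match and that of Rasl12 none of the 4.

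Wnt ligands, receptors and modulators had mostly positive changes. Of 32 members tested 29 were above 0, the median was 0.42, and 9 were higher and 1 was lower at an unadjusted p below 0.05, against 6.95% and 5.78% of all genes tested. Sfrp2 was the only called member. Wnt5a, a ligand of the branch that does not use beta-catenin, lay at 17.7, 21.5 and 37.6 CPM in lean and at 20.1, 41.7 and 91.3 CPM in obese libraries (change 0.93 ± 0.27, adjusted p = 0.13). Its coreceptor Ror2 had a change of 0.36 ± 0.14, and Wnt5b, Wnt9a and Wnt11 of 0.64, 1.58 and 1.10. The antagonist Dkk2 went the other way, with medians of 49.7 and 17.1 CPM (change -1.18 ± 0.41, adjusted p = 0.205). It was not typical of such genes in the list. Sfrp1, Sfrp4, Frzb and Dkk3 had positive changes of 0.83, 1.14, 0.82 and 0.31, as Sfrp2 did. The median of the list was 0.50 without aged obese 10 and 12.

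Contractile, skeletal and TGF-beta genes showed the same sign. All 14 mural and smooth muscle genes tested had a positive change, with a median of 0.60 and 7 at an unadjusted p below 0.05. None was called by edgeR. Over all genes tested, 51.2% were positive and 6.95% were higher at that p. Mylk, the myosin light chain kinase, lay at 42.9, 89.9 and 187 CPM in lean and at 152, 180 and 321 CPM in obese libraries (change 1.08 ± 0.29, adjusted p = 0.0904). The vascular potassium channel subunit gene Abcc9 had a change of 2.29 ± 0.60 (0.0875) and smooth muscle myosin Myh11 of 1.35 ± 0.39 (0.13). Without aged obese 10 and 12, 11 of 14 mural and smooth muscle genes were positive and the median was 0.29. Only 3 were then higher at an unadjusted p below 0.05. In the tendon, cartilage and bone list 13 of 14 were positive with a median of 0.58, Tnn was called, and Spp1 had a change of -0.91. The TGF-beta and activin list had 21 positive members of 26, a median of 0.30, 6 members higher at an unadjusted p below 0.05 and no call by edgeR. Its ligand Tgfb3 was at 438 and 371 CPM in obese 10 and 12 and at 58.2 to 274 CPM in the other 4, against 56.1 to 148 CPM in lean libraries (change 1.27 ± 0.31, adjusted p = 0.0701).

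**Figure D4:**
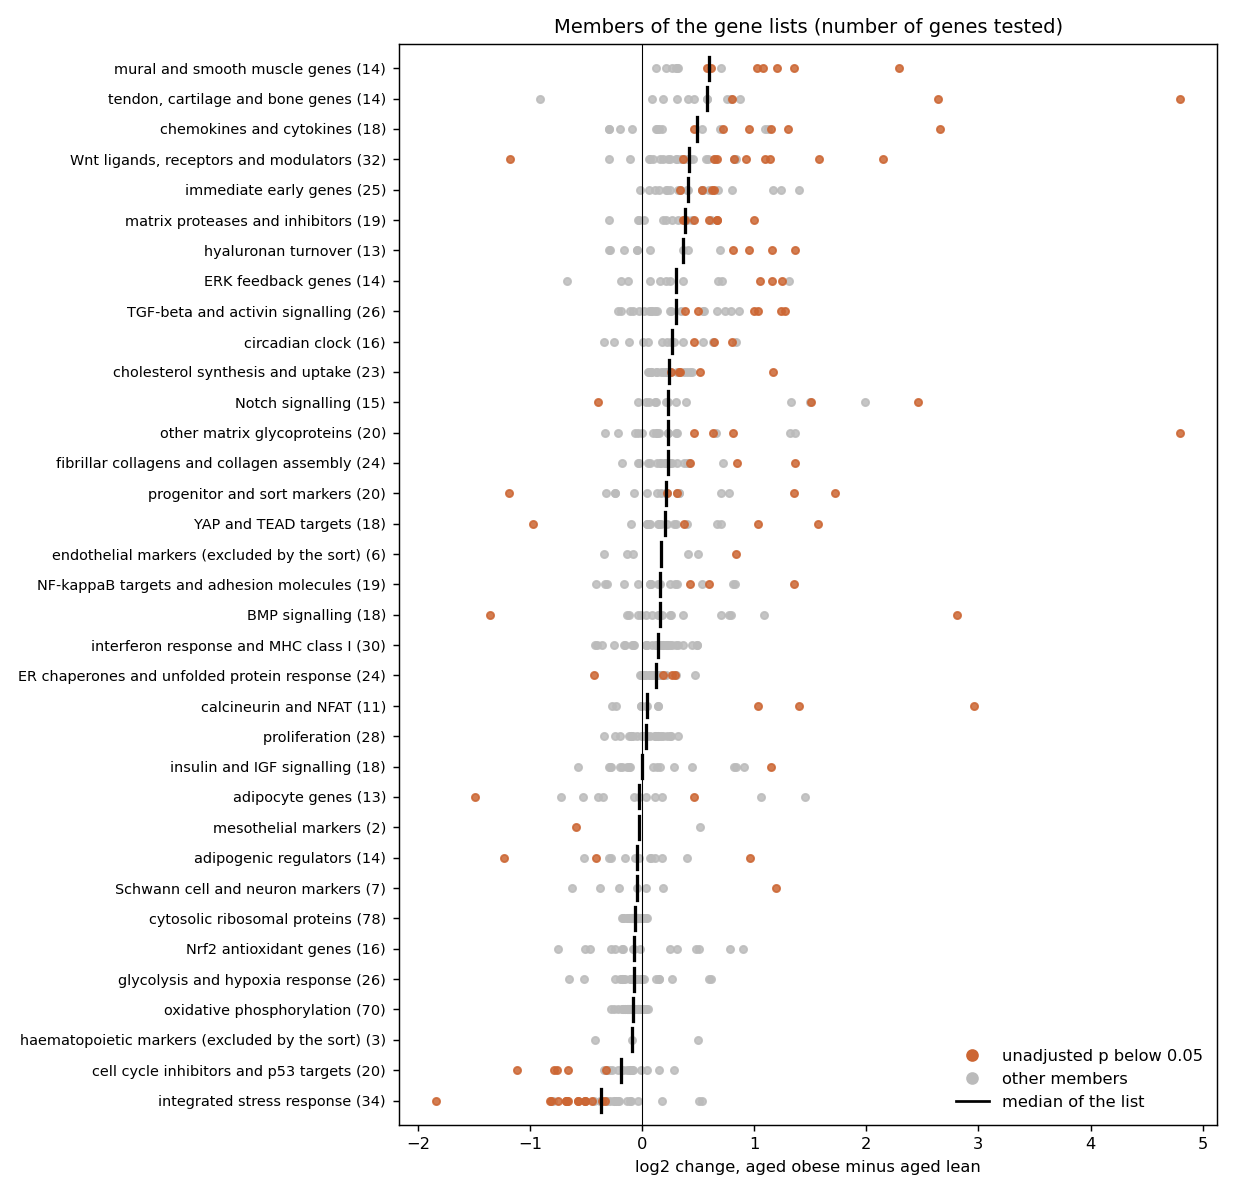
Points are the log2 changes of the tested members of each gene list (x axis), coloured at an unadjusted p below 0.05, with the list's median as a black line and the number tested in parentheses. The integrated stress response lies lowest with a median of -0.37, and the mural and smooth muscle genes highest with 0.60.

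Matrix genes were higher at the median without further calls, where 51.2% of all genes tested had a positive change. Of 24 collagen and collagen assembly genes 21 had a positive change with a median of 0.23, and Col3a1 had medians of 7520 and 14600 CPM in lean and obese libraries with wide overlap (change 0.85 ± 0.41, adjusted p = 0.382). Of 19 matrix proteases and inhibitors 16 were positive with a median of 0.38, among them Adam12, at 145, 170 and 206 CPM in lean and 178, 272 and 348 CPM in obese libraries (change 0.60 ± 0.15, adjusted p = 0.0851). The hyaluronan list had a median of 0.36 over 13 genes, of which only 8 were positive. At an unadjusted p below 0.05, 4 of its genes were higher and none lower, against 6.95% and 5.78% of all genes tested. Its members Has2, a hyaluronan synthase, and Cd44, the hyaluronan receptor and a keyword of the study, had changes of 1.16 ± 0.42 and 0.81 ± 0.28. Cd44 lay at 142, 242 and 611 CPM in lean and at 181, 577 and 765 CPM in obese libraries, and did not pass (adjusted p = 0.201). Its highest lean value was in aged lean 16. Its high obese values were in numbers 10, 12, 15 and 17 (620, 533, 765 and 692 CPM), with 258 and 181 CPM in numbers 14 and 16.

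The other keyword genes did not pass either. Dusp6, a phosphatase that restrains ERK, lay at 9.68, 21.6 and 35.1 CPM in lean and at 26.5, 49.4 and 76.6 CPM in obese libraries (change 1.16 ± 0.35, adjusted p = 0.148). Itih2, a serum protein linked to hyaluronan, had a change of -0.83 ± 0.28 (0.201). Nfatc2, a calcium-dependent transcription factor, spanned 0.124 to 14.1 CPM in lean and 0.13 to 61.8 CPM in obese libraries. Its highest values were in aged lean 16 (14.1 CPM) and aged obese 15 and 17 (61.8 and 29.5 CPM), the set that was high in the Notch target Heyl (change 2.96 ± 0.94, adjusted p = 0.172). Notch1 followed the same libraries, at 76.2 CPM in aged lean 16, 166 and 106 CPM in aged obese 15 and 17, and 5.26 to 17.2 CPM in all others.

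Cell cycle inhibitors were lower at the median. Cdkn2a, which encodes the senescence-associated inhibitors p16 and p19ARF, lay at 50.4, 67.6 and 92.9 CPM in lean and at 11.7, 33.3 and 57.8 CPM in obese libraries. Aged obese 15 was the only obese library within the lean range, and aged obese 10 and 12 were lowest. The change was -1.12 ± 0.27 and narrowly missed the threshold (adjusted p = 0.0723). Of 20 members of the list 3 were positive, the median was -0.19, and 5 were lower at an unadjusted p below 0.05. Over all genes tested, 51.2% were positive and 5.78% were lower at that p. Proliferation genes had a median of 0.03 over 28 genes, none with an unadjusted p below 0.05. Without aged obese 10 and 12, whose Mki67 was 234 and 173 CPM, that median was -1.15. In that fit 21 of the 28 were lower at an unadjusted p below 0.05. Over all genes, 2705 of 14648 had such a p there, in either direction.

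Several further lists stayed close to 0. The median was -0.08 over 70 oxidative phosphorylation genes, -0.06 over 78 cytosolic ribosomal protein genes, -0.03 over 13 adipocyte genes, -0.05 over 14 adipogenic regulators and -0.07 over 26 glycolysis and hypoxia genes. None of their members was called by edgeR. At an unadjusted p below 0.05, 1 adipocyte gene was higher and 1 lower, 1 adipogenic regulator was higher and 2 were lower, and no gene of the other 3 lists passed. Without aged obese 10 and 12 the sign turned for 4 of these 5 medians, to 0.10 for the ribosomal, 0.20 for the adipocyte, 0.12 for the adipogenic regulator and 0.06 for the glycolysis and hypoxia list. Single ribosomal genes are uncertain because of near-identical pseudogenes. All 23 cholesterol genes had a positive change with a median of 0.24, 5 were higher at an unadjusted p below 0.05 and none was called by edgeR. Without aged obese 10 and 12, 20 of the 23 were positive. Immediate early genes, transcribed within minutes of a stimulus, had a median of 0.41, with 24 of 25 above 0. Of these genes 4 were higher at an unadjusted p below 0.05 and none was called by edgeR. Over all genes tested, 51.2% were positive and 6.95% were higher at that p.

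The groups did not overlap in CPM for 15 genes that were higher (0.104% of those tested) and 12 that were lower (0.0831%) in obese libraries. Only 6 of the 27 were called, the 6 being Rasl12, Sfrp2, Gzmd, Ccl9, Nefm and Gbx2, all higher. Examples among the others, chosen after their values were seen, are the growth-related RNA binding proteins Igf2bp1 and Igf2bp3. Igf2bp1 lay at 3.98 to 7.54 CPM in lean and 0.947 to 3.87 CPM in obese libraries (change -0.94 ± 0.24, adjusted p = 0.0777). Igf2bp3 lay at 9.29 to 21 CPM and 4.1 to 9.08 CPM (change -1.02 ± 0.27, adjusted p = 0.0875). The cochaperone gene Dnaja1 had a small change of 0.26 ± 0.06 (adjusted p = 0.0777) with narrow groups, at 105 to 122 CPM in lean and 124 to 150 CPM in obese libraries.

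Changes were set beside those of 20-week-old mice, of which 1275 genes were called (8.83% of those tested). Young obese mice had eaten the diet for a shorter time, so age and time on the diet cannot be told apart. Of the 32 genes called in aged mice, 23 had the same sign in young mice and 6 were called there too, namely Icam1, Cemip2, C2cd2l, Nefm, Sybu and, with the opposite sign, Ccl9. The difference between the 2 changes passed for 1 gene (0.00693% of those tested). That gene was Ccl9, which lay at 30.1, 40.6 and 88.7 CPM in young lean and at 21.1, 28 and 38.5 CPM in young obese libraries, a change of -0.63 ± 0.20, against 1.15 at 52 weeks. The difference was 1.78 ± 0.29 (adjusted p = 0.0131).

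Other genes with unlike values at the ages did not pass the test of the difference. Gucy1b1, a subunit of the nitric oxide receptor, had a change of 1.16 ± 0.33 in aged and -1.21 ± 0.31 in young mice (difference 2.37, adjusted p = 0.0759). Ltbp4 had changes of 1.14 and -0.41 (adjusted p of the difference = 0.16), Trib3 of -1.84 and -0.31 (0.447) and Sfrp2 of 2.15 and 0.77 (0.537). Sybu had nearly equal changes, -1.59 ± 0.35 and -1.63 ± 0.31. Cdkn2a likewise had -1.12 ± 0.27 in aged and -1.11 ± 0.25 in young mice, where it was called (adjusted p = 0.0151). The median change of the integrated stress response list was -0.37 in aged and 0.01 in young mice, and that of the ribosomal list -0.06 and -0.44. With voom and quality weights 91 genes, and without aged obese 10 and 12 and aged lean 16 together 696 genes, differed between the ages. The latter setting kept aged obese 15 and 17, which were high in Heyl like aged lean 16.

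**Figure D5:**
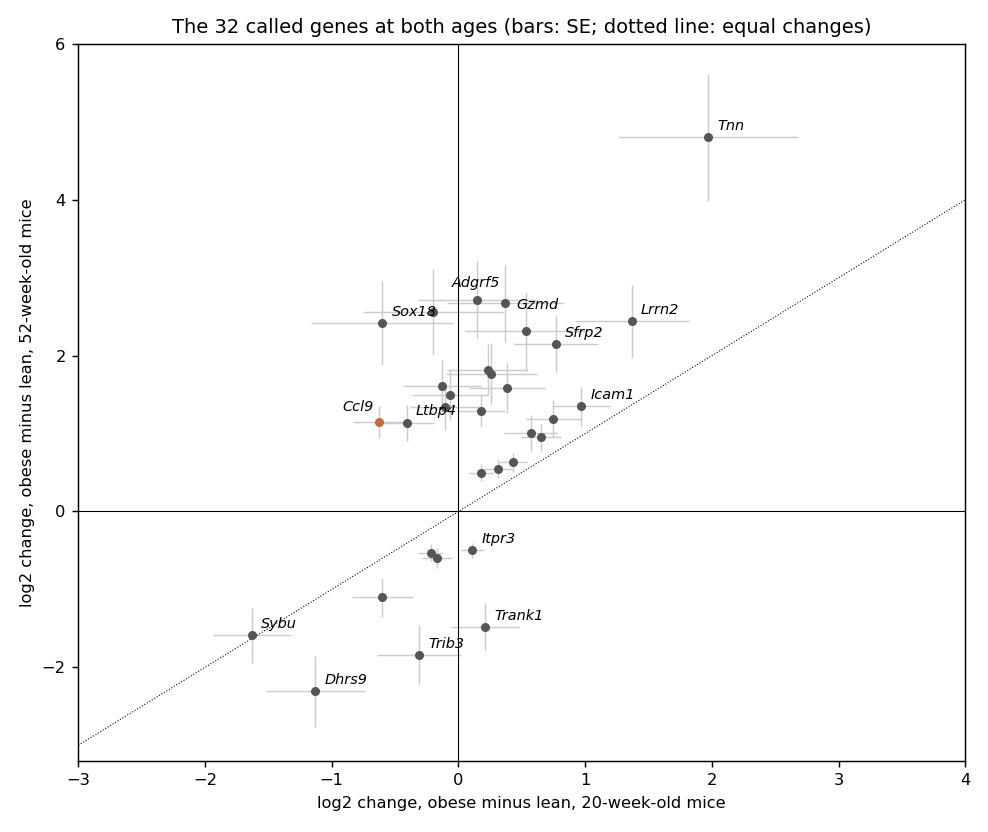
Each point is 1 of the 32 genes called at 52 weeks, with its log2 change in 20-week-old mice on the x axis and in 52-week-old mice on the y axis; bars are SE and the dotted line marks equal changes. Ccl9, in colour, lies at -0.63 and 1.15, and Sybu lies close to the line at -1.63 and -1.59.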

How the data were processed

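RNA of 30 cultures was sequenced, and the deposited table holds, for each Ensembl gene, unnormalized read counts. Per the submitters' processing notes the authors used STAR, HTSeq 0.7.0 and DESeq2 1.12.4. Genome build, annotation and strand setting are not given in the sources used here. Reads of overlapping or antisense genes therefore cannot be told apart. Of 38561 genes 36639 had a symbol, and 5 summary lines naming no gene (reads in no gene and ambiguous reads among them) were left out of totals and tests. Reads in no gene and ambiguous reads were 5.91% to 8.75% and 2.69% to 3.07% of counted reads per aged library. Groups and mouse numbers came from the sample titles.

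Genes were filtered by group (filterByExpr), scaled by TMM and fitted in edgeR 4.0.16 (R 4.3.3) with a quasi-likelihood model and 1 term per group over all 30 libraries. Log2 CPM used a prior count of 2. Alternatives used DESeq2 1.42.0, limma 3.58.1, other scaling and filters, and fewer libraries. The scripts were tested on simulated data. A total of 35 lists with 814 genes were described, 4 of which were not found. Members, lists and tests were chosen with earlier results of these data known. Named were up to 15 called genes in each direction by adjusted p, the called or else 2 leading members of each list, keywords, sort markers and 5 genes of the age difference. The 9 other called genes (Chsy1, Gzme, Tmem132e, Msx1, Bcl6b, Furin, Sox18, Gzmc and Itga5), further list members and genes of the marker lists were named after their values were seen. A few items, 1 of them a gene whose sign changed in an alternative, are not reported here. Promoters came from RefSeq, and coordinates are of that build (GRCm38.p6), not of the files.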

Additional observations from a re-analysis of the deposited data

Results flagged for a closer look

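Within-group outliers were looked for in 38 named genes, or 76 groups of 6 or 8 libraries, and 10 groups held one. Chance gives about 1 in 20 independent groups. The same libraries recur here in every gene, so the number found cannot be judged against that rate. Aged lean 16 lay above the other lean libraries for Tnn (3.61 CPM), Cemip2 (63.4 CPM), Itga5 (1680 CPM), Furin (226 CPM), Cd44 (611 CPM) and Nfatc2 (14.1 CPM), and below them for Dzip1 (23.4 CPM). Among obese libraries, number 14 lay above the others for Gbx2 (7.79 CPM), and number 15 for Sox18 (2.68 CPM) and Msx1 (22.4 CPM). The effect of obesity on Ccl9 differed between the ages by 1.78 on the log2 scale in the edgeR test of the difference, with a rise in aged and a fall in young mice.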

How the results depend on the processing

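The count of 32 called genes was 18 without a filter on low counts, 32 with RLE size factors, 30 with a robust prior, 187 with DESeq2, 114 with voom and quality weights, 0 with voom and a variance per group and 0 with only aged libraries. It was 9 to 435 with a single library left out, 9 without aged obese 10 and 12, and 930 also without aged lean 16, a setting chosen after seeing the data. That setting kept aged obese 15 and 17, which were high in Heyl like aged lean 16. The count of 1 gene whose change differed between ages was 7 with DESeq2, 91 with quality weights, 1 to 6 with a single library left out, 5 without aged obese 10 and 12 and 696 also without aged lean 16. Mouse numbers 12, 15, 16 and 17 occur in both groups. Deviations of libraries sharing a number correlated at 0.2, 0.39, -0.1 and -0.52, and only number 12 correlated best with its own number. Such correlations cannot settle whether a shared number links mice. The labels name no pairs, and the main fit treated the numbers as names. On these 8 libraries the replicate block gave 0 calls (149 genes at an unadjusted p below 0.05) and the fit with no block, added after seeing the data, 0 (174). No called gene changed sign under any setting run. Of 2265 values of named genes 30 did, none of a called gene. With quality weights these were Ankrd1 (-0.32) and Ccne2 (-0.03), with a variance per group Vwf (-0.01), Lyz2 (-0.12), Wt1 (-0.02) and Cd34 (-0.62), with the replicate block Lyz2 (-0.09), Ankrd1 (-0.16) and Hmox1 (-0.08), and with no block Ccne2 (-0.04). With single libraries left out, the range was -0.08 to 0.52 for Ccne2 (negative without aged obese 10), -0.25 to 1.04 for Hmox1 and -0.29 to 0.71 for Cd34 (aged obese 15), and -0.22 to 0.78 for Wt1 (aged obese 16). Without aged obese 10 and 12 they were Esam (-0.09), Ankrd1 (-0.89), Pcna (-0.04), Ccne2 (-0.53), Rpl22 (0.02), Rps12 (0.02) and Ly6a (0.09). Also without aged lean 16 they were Esam (-0.03), Klf6 (-0.06), Ankrd1 (-1.03), Pcna (-0.07), Ccne2 (-0.63), Rpl22 (0.08), Rps12 (0.06) and Ly6a (0.05). Except where fewer libraries were fitted, the cause was not tested. Genes below 1 CPM rest on few reads.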
